A study of Mus musculus with 69 samples.

Results

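The nuclear oxidative phosphorylation genes are the genes of the count table whose symbols begin with Nduf, Uqcr, Atp5 or Cox followed by a digit from 4 to 8, or are Sdha, Sdhb, Sdhc or Sdhd, and which had at least 10 counts in at least 7 libraries. By this rule 41 of the 9930 genes analysed here were members, and all 41 symbols that matched also met the count rule. They comprised 16 subunits of complex I, 2 of complex II, 2 of complex III, 4 of complex IV and 6 of complex V, which are called the 30 structural subunits below. The other members were 4 assembly factors of complex I, 6 tissue isoforms of complex IV and Atp5sl, a gene named after an ATP synthase subunit but listed by RefSeq as Dmac2, whose product takes part in building the membrane arm of complex I.

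Oxidative phosphorylation is the main source of ATP in neurons. Complexes I and II pass electrons from NADH and succinate to ubiquinone, complex III passes them on to cytochrome c, and complex IV passes them to oxygen. Complexes I, III and IV pump protons across the inner mitochondrial membrane, and complex V, the ATP synthase, makes ATP as the protons flow back. All complexes but II combine subunits encoded in the nucleus, which are the subject here, with subunits encoded in the mitochondrial genome, which were not analysed here.

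The series holds RNA sequencing of the hippocampus of 69 male mice, 1 library per animal. The mice carried a knockout of Cdh13, the gene of the adhesion protein T-cadherin, or were wildtype (ko, wt). Their litters had been separated daily for 3 h from postnatal day 1 to 14 (MS) or had only been handled (Ctr), and the brains were taken at weaning on postnatal day 22 (P22) or in adulthood on day 66 (P66). At P22 there were 8 Ctr_wt, 11 MS_wt, 9 Ctr_ko and 10 MS_ko animals, and at P66 there were 7, 10, 7 and 7 in the same order. Animals came from 2 breeding cohorts, and every group held animals of both, with 2 to 6 animals of cohort 1 and 2 to 8 of cohort 2. The labels name neither the litters nor the way the knockout allele was made. Genotypes are as labelled, because the level of Cdh13 was not analysed here.

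Library totals over the part of the table analysed here ran from 11.283 to 16.365 M counts (M for mega), with a median of 13.278 M. All levels below are CPM, counts per M counts of that part on library sizes scaled by TMM, a normalization on the bulk of the genes. Markers of the hippocampal fields were present in every library, their 10 genes together giving between 1923 and 2704 CPM. The hippocampus was cut from frozen slices, and 10 markers of the choroid plexus, a neighbouring tissue, summed to between 144 and 761 CPM at P22 and 115 and 782 CPM at P66. None of these markers was at 0 in all libraries.

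Some libraries stood apart in a way that touches the members. Members have short transcripts (median 875 bases, against 2591 bases over all genes). Each library was therefore given a length slope, the change of a gene's log2 CPM deviation per doubling of transcript length, over genes that are no members. The 5 libraries with the highest level of the 30 subunits (MS_wt_P22 animal C1-51, MS_ko_P66 C1-56, Ctr_ko_P22 C1-4, MS_ko_P22 C2-23 and Ctr_ko_P22 C2-43, where C1 and C2 give the cohort) also had the 5 lowest slopes, -0.12 to -0.047. The other 64 libraries had slopes from -0.042 to 0.073. In those 5 the subunit level was 0.17 to 0.32 (log2) above the mean of all libraries. At the other end lay Ctr_wt_P22 C1-56 and MS_ko_P22 C2-36, both at 0.073. Slopes beyond 3 median absolute deviations, called extreme below, were those of these 2 libraries and of MS_ko_P66 C1-56, Ctr_ko_P22 C2-43 and MS_ko_P22 C2-23. Counts and medians with the length trend removed are given below for the age effect and for the interactions within each age.

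**Figure D1:**
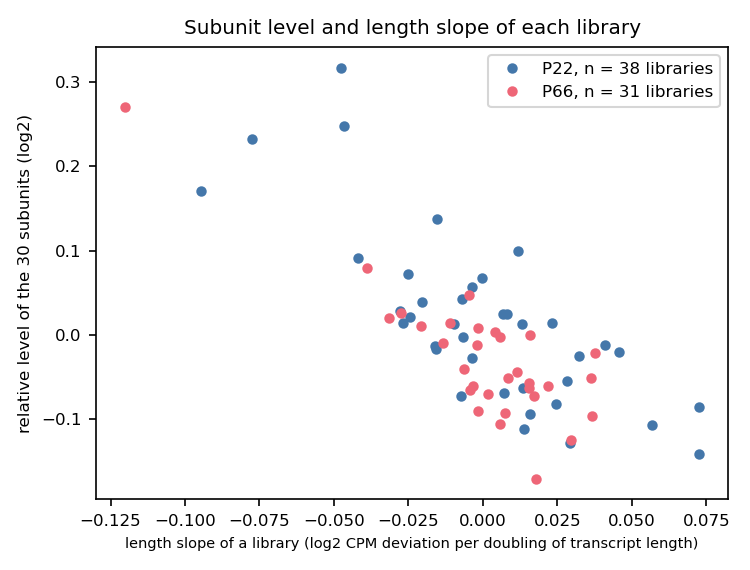
Each point is 1 library: its length slope (x axis, log2 CPM deviation per doubling of transcript length, non-member genes) and the relative level of the 30 structural subunits (y axis, median log2 deviation from the mean of all libraries), coloured by age. The 5 libraries with the highest subunit level, 0.17 to 0.32, lie at the 5 lowest slopes.

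Promoters are shown for 4 members that changed with age, each holding at least 1 of the sequence words marked below. The rule of membership did not use these words. Other members that changed with age, such as Ndufa4 and Atp5g3, hold none of the 3 marked words. NRF1, ETS factors such as GABP, and YY1 are transcription factors known for binding promoters of respiratory chain genes. The windows reach from 250 bases before to 50 bases after the transcript start (RefSeq, GRCm38.p6), 34 of the 41 members had one, and those without included Cox4i2, Cox6a2, Ndufaf6, Ndufs1, Sdhc and Uqcrc2. Capitals mark GCGCATGC (NRF1), CCGGAAG (ETS) or AAGATGGC (YY1) on either strand; in Cox6a1 and Cox6b1 the ETS word lies on the other strand.
Cox6a1 (chr5:115348909-115349208, minus strand): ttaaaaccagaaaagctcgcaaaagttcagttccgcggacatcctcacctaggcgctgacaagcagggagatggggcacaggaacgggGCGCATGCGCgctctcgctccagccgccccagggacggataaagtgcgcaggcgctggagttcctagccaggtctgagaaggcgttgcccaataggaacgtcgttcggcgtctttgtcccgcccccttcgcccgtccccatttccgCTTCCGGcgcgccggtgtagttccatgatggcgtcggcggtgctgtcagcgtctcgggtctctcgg
Cox6b1 (chr7:30626065-30626364, minus strand): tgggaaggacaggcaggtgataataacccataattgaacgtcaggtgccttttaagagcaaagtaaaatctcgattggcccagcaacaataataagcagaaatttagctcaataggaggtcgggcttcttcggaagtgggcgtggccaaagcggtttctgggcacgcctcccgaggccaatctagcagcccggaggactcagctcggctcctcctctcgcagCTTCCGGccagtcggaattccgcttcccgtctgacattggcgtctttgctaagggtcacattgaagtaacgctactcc
Ndufa3 (chr7:3617123-3617422, plus strand): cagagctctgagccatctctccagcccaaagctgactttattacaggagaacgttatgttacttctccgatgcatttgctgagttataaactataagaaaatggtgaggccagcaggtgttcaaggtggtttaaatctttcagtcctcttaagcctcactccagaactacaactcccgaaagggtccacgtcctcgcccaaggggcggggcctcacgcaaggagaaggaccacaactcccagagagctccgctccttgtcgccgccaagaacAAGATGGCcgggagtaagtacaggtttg
Ndufaf5 (chr2:140170396-140170695, plus strand): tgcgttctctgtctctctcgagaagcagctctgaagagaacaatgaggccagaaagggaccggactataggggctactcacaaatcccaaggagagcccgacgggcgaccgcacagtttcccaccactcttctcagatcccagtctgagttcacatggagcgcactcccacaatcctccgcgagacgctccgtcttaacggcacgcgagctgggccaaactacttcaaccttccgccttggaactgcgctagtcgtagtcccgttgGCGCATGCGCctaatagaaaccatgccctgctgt

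In the Cox6a1 window a palindrome holds the NRF1 word on both strands, and an ETS word begins 16 bases before the start. The Cox6b1 window holds an ETS word 28 bases before the start. Counting the start as base 1, the YY1 word of Ndufa3 begins at base 23 and the NRF1 palindrome of Ndufaf5 at base 17. Among the 34 windows the NRF1 word was found in 6 (17.6%, against 3.4% of 8086 promoters of the same length), the ETS word in 9 (26.5% against 11.8%) and the YY1 word in 6 (17.6% against 2.8%). At least 1 of these 3 words occurred in 18 windows (52.9%), against 16.8% of all promoters. The last letters of the ETS word and the first letters of the YY1 word are the same, so the words can overlap, but no member held both. The other words searched on both strands were TCAAGGTCA (ERR; 2.9% against 0.4%), GGGCGG (SP1; 44.1% against 46.9%), TATAAA (the word of a core promoter element; 8.8% against 13.7%) and TGACGTCA (CRE; 5.9% against 2.3%). In a window of 100 bases around the start the ERR word was in no member, the SP1 word in 17.6% (against 30%), and the NRF1, ETS and YY1 words in 11.8%, 20.6% and 17.6% (against 1.7%, 7.2% and 1.7%). A word in a window is a description of these letters and says nothing about binding.

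Per kilobase of transcript, the complex IV subunits Cox6a1 and Ndufa4 stood highest among the members. Cox6a1, the common form of subunit VIa, had 905 ± 119 CPM per kb (SD, n = 69), Ndufa4, once counted with complex I and now placed in complex IV, 699.9 ± 63.8, Cox6b1, a subunit facing the intermembrane space, 594 ± 72.9, and Cox5b 429.6 ± 41.2. Among complex V subunits the range was from 237.5 ± 23.3 CPM per kb for Atp5j2, the membrane subunit f, to 618 ± 45.0 for Atp5g3, which encodes the rotating c subunit. Complex I subunits ran from 32.5 ± 2.30 CPM per kb for Ndufb2 to 272 ± 27.3 for Ndufa3, so that the highest of them lay above Atp5j2, and the assembly factors from 17.6 ± 2.13 (Ndufaf4) to 69.7 ± 4.25 (Ndufaf5). The 6 tissue isoforms stood lowest, from 1.68 ± 0.632 CPM per kb for Cox7b2 to 7.68 ± 2.01 for Cox6a2, and Cox7b2 had only 2 to 23 counts in a library. The difference between neighbours such as Cox7a1 (7.09 ± 1.41) and Cox6b2 (7.11 ± 1.94) does not exceed their spread. Transcript lengths differ between annotated forms of a gene, so these levels depend on the main transcript chosen. Those of Ndufb2 and Ndufaf4, the lowest of their groups, had 4371 and 3632 bases, against a member median of 875.

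**Figure D2:**
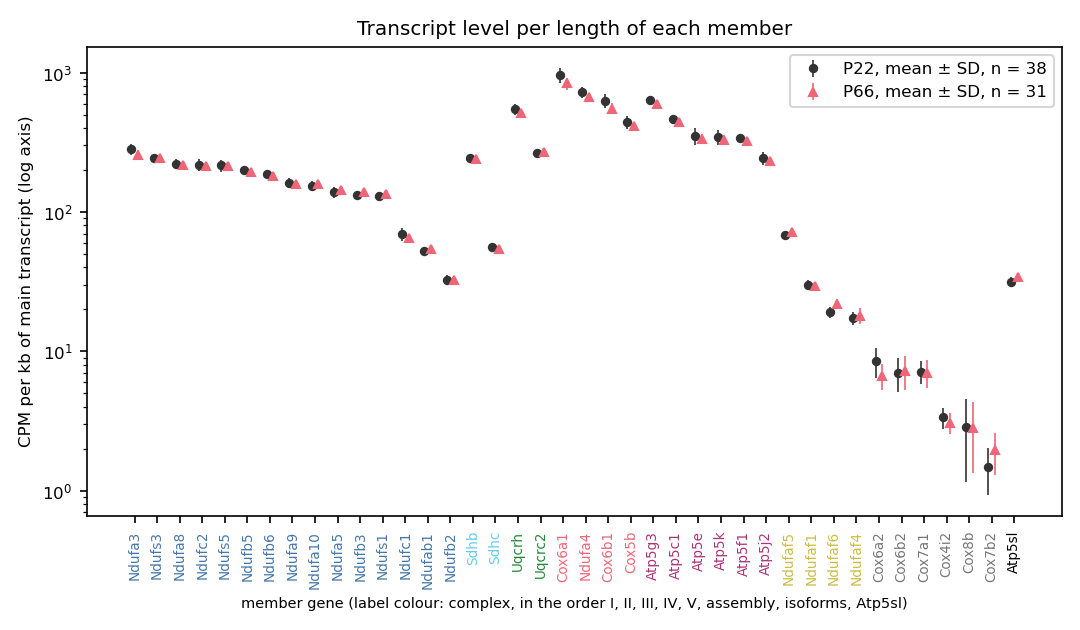
Mean level of 40 of the 41 members in CPM per kb of its main transcript (y axis, log scale) at P22 (circles, n = 38 libraries) and P66 (triangles, n = 31), with bars for the SD over libraries. Cox6a1 is highest and Cox7b2 lowest, and the ages lie close together for each gene.

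The first comparison asked which members change between weaning and adulthood. Averaged over the 4 genotype and rearing groups, 5 members were higher and 13 lower at P66 than at P22, and 23 did not pass (edgeR's quasi-likelihood test, adjusted p under 0.05 over all 7131 genes tested). Over all genes 26.2% were higher, 25.8% lower and 52% changed in either direction, so the members' share of calls, 43.9%, was not above the background. Changes were small, from 1.04-fold to 1.31-fold among the 18 that passed, and in all 41 members the ranges of the ages overlapped. Of the 30 structural subunits 12 fell and 1 rose, 23 had negative log2 changes, and their median was -0.048, against 0.0089 over all genes. The 5 that rose were the assembly factors Ndufaf5 and Ndufaf6, the isoform Cox7b2, Atp5sl and the complex I subunit Ndufb3. In cohort 1 alone 5 members were higher and 3 lower, and in cohort 2 alone 2 were higher and 11 lower, with structural subunit medians of -0.022 and -0.069. With the length trend removed 15 of the 30 subunits fell and 2 rose (median -0.049), and without the 5 libraries of extreme length slope 15 fell and none rose (median -0.059). In bulk tissue fewer cells of a type and less RNA per cell cannot be told apart.

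**Figure D3:**
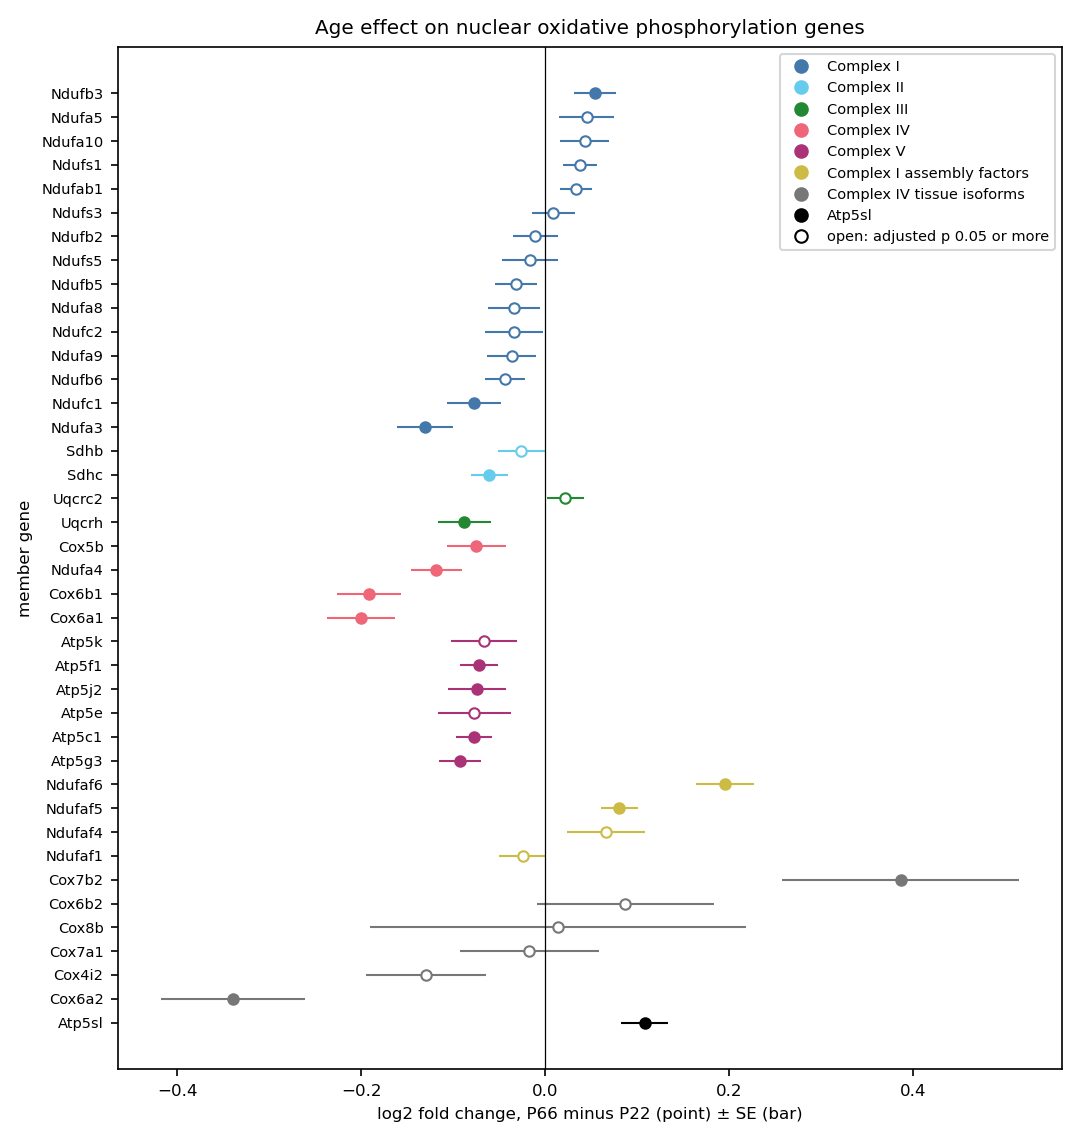
Age effect of 40 of the 41 members as log2 fold change, P66 minus P22 (x axis; point, with the SE as bar), grouped by complex; filled points passed at an adjusted p under 0.05. All 10 points of complexes IV and V lie below 0, and Cox7b2 (0.39) and Cox6a2 (-0.34) are the largest changes.

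All 4 complex IV subunits fell. Cox6a1 had 405, 534 and 717 CPM (lowest, median, highest) in the 38 P22 libraries and 421, 470.0 and 668 CPM in the 31 P66 libraries. Of the P66 libraries 28 lay below the P22 median, although every one lay within the P22 range. On the log2 scale the change was -0.20 (SE 0.037, adjusted p 4.72e-06), so Cox6a1 fell by 12.95%. Cox6b1 went from 318, 382 and 505 CPM to 292, 335 and 443 CPM, with 8 P66 libraries below the lowest at P22 and 5 P22 libraries above the highest at P66. Its log2 change was -0.19 (SE 0.035, adjusted p 4.09e-06). Ndufa4 went from 388, 432 and 585 CPM to 375, 404 and 485 CPM, and 27 of the 31 P66 libraries lay below the P22 median (log2 change -0.12, SE 0.028, adjusted p 0.000239). Ndufa4 did not pass in cohort 1 alone (adjusted p 0.168). Cox5b, the zinc-binding subunit Vb, changed least, from 310.0, 376 and 483 CPM to 320, 360 and 452 CPM, with 26 of 31 P66 libraries below the P22 median. Its log2 change of -0.075 (SE 0.032) had an adjusted p of 0.0441, and it passed in only 51 of the 69 fits that each left out 1 library. Cox5b did not pass with limma-voom (adjusted p 0.0575), with a filter of at least 1 CPM in 7 libraries (0.0769) or in either cohort alone (0.486 and 0.0513).

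All 6 complex V subunits had negative log2 changes, and 4 of them fell. None of the 6 passed in cohort 1 alone (median log2 change -0.032), and 3 were lower in cohort 2 alone (median -0.11). Atp5g3 went from 412, 446 and 549 CPM at P22 to 390, 420 and 478 CPM at P66, and 6 P66 libraries lay below the lowest at P22. The change on the log2 scale was -0.092 (SE 0.023, adjusted p 0.000577). Atp5c1, the gamma subunit of the central rotor, went from 492, 539 and 634 CPM to 471, 520 and 567 CPM (log2 change -0.077, SE 0.020, adjusted p 0.000741). Of the P22 libraries 9 lay above every P66 library. Atp5f1, the peripheral stalk subunit b, went from 479, 537 and 660 CPM to 475.5, 515 and 561 CPM (log2 change -0.072, SE 0.020, adjusted p 0.00221), again with 9 P22 libraries above every P66 library. Atp5j2 went from 199, 228 and 293 CPM to 199, 217 and 286 CPM (log2 change -0.074, SE 0.032, adjusted p 0.0465), and it passed in 46 of the 69 fits without 1 library. Atp5j2 did not pass with limma-voom (adjusted p 0.0580), with the filter of at least 1 CPM (0.0813), without the cohort term (0.0538) or in either cohort alone (0.742 and 0.0565). The small subunits Atp5e (epsilon, -0.077, SE 0.039, adjusted p 0.0953) and Atp5k (e, -0.067, SE 0.036, adjusted p 0.111) did not pass. Both passed with the length trend removed (adjusted p 0.0315 and 0.0424) and without the 5 libraries of extreme length slope (0.0324 and 0.0428), where all 6 complex V subunits were lower.

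Complex I, the entry point for electrons from NADH, was mostly without a call. Of its 16 subunits 13 did not pass, 2 fell and 1 rose. Ndufa3, a small accessory subunit of the membrane arm, had 126, 144 and 181 CPM at P22 and 111, 133 and 170.4 CPM at P66, and 29 of 31 P66 libraries lay below the P22 median. The change on the log2 scale was -0.13 (SE 0.030, adjusted p 0.000209). Ndufa3 did not pass in cohort 1 alone (adjusted p 0.0597). Ndufc1, another accessory subunit, went from 75, 85.6 and 117 CPM to 72.9, 81.2 and 99.2 CPM (log2 change -0.077, SE 0.029, adjusted p 0.0226). Ndufc1 passed in 64 of the 69 fits without 1 library, but in neither cohort alone (adjusted p 0.521 and 0.0630). Ndufb3, an accessory subunit of the membrane arm, went the other way, from 91.3, 100.5 and 125 CPM to 96.7, 105 and 122 CPM. Its log2 change was 0.054 (SE 0.023, adjusted p 0.0417), and its call was the least steady of the 18, passing in 37 of the 69 fits without 1 library. The 2 subunits nearest to no change were Ndufs3 (core subunit of the arm facing the matrix, log2 change 0.0091, SE 0.024) and Ndufb2 (accessory subunit, -0.011, SE 0.024), whose SEs allow changes in either direction.

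In complex II, Sdhc, a membrane anchor, fell from 158, 177 and 199 CPM to 157, 170.3 and 211 CPM (log2 change -0.061, SE 0.020, adjusted p 0.00927). Sdhb, the iron-sulfur subunit, had a log2 change of -0.026 (SE 0.025, adjusted p 0.406). In complex III, Uqcrh, the hinge protein beside cytochrome c1, fell from 255, 294.7 and 379 CPM to 250.2, 273 and 357 CPM (log2 change -0.088, SE 0.029, adjusted p 0.00927). Uqcrc2, a large core protein, had a log2 change of 0.022 (SE 0.020, adjusted p 0.355). For each of these 4 genes at most 2 P66 libraries lay outside the P22 range. Sdhc and Uqcrh did not pass in cohort 1 alone (adjusted p 0.645 and 0.432).

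Of the 4 assembly factors of complex I 2 rose and none fell, with a median log2 change of 0.074. Ndufaf6 had 17.5, 20.5 and 24.8 CPM at P22 and 20.6, 23.3 and 27.9 CPM at P66. Every P66 library lay above the P22 median, 9 of them above every P22 library, and 21 P22 libraries lay below every P66 library. This was a log2 change of 0.20 (SE 0.032, adjusted p 3.41e-07), a rise of 14.5%. With the myelin and choroid plexus scores as covariates the log2 change of Ndufaf6 was 0.054 (adjusted p 0.596), and with the myelin score alone 0.073 (adjusted p 0.470). Ndufaf5, which hydroxylates a core subunit during assembly, rose from 69.5, 78.9 and 90.7 CPM to 76.1, 84.2 and 94.0 CPM (log2 change 0.081, SE 0.020, adjusted p 0.000562), with 28 of 31 P66 libraries above the P22 median. Ndufaf4 (0.066, SE 0.042, adjusted p 0.187) and Ndufaf1 (-0.024, SE 0.026, adjusted p 0.435), both factors of early assembly steps, did not pass. Atp5sl rose from 64.3, 74.2 and 90.3 CPM to 69.8, 81.4 and 95.8 CPM, with 30 of 31 P66 libraries above the P22 median (log2 change 0.11, SE 0.026, adjusted p 0.000302).

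The tissue isoforms of complex IV replace the common subunits in other organs and were rare here. Cox6a2, the heart and muscle form of subunit VIa, had 3.52, 5.53 and 9.60 CPM at P22 and 2.80, 4.41 and 6.36 CPM at P66, so that 10 P22 libraries lay above every P66 library. Its log2 change was -0.34 (SE 0.078, adjusted p 0.000200), in the same direction as its common counterpart Cox6a1. Cox7b2 had 0.154, 0.771 and 1.64 CPM at P22 and 0.289, 1.00 and 1.75 CPM at P66, with 25 of 31 P66 libraries above the P22 median. The change on the log2 scale was 0.39 (SE 0.13, adjusted p 0.00939), on 2 to 23 counts per library. The other isoforms did not pass: Cox4i2, a form known from the lung, had a log2 change of -0.13 (SE 0.065), Cox6b2, known from the testis, 0.087 (SE 0.096), and the heart and muscle forms Cox7a1 and Cox8b -0.017 (SE 0.075) and 0.014 (SE 0.20). At the SE of Cox8b a change as small as that of Cox6a1 was not detectable.

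**Figure D4:**
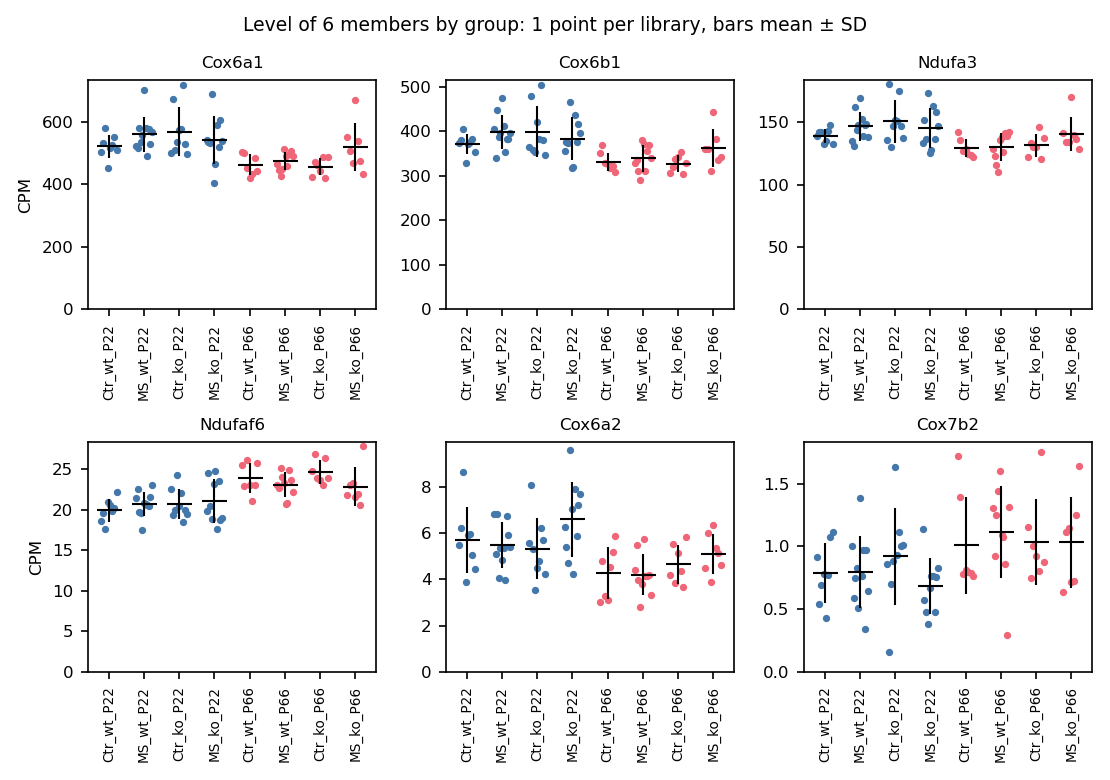
Level in CPM (y axis, from 0) of 6 members in the 8 groups; 1 point per library (blue P22, red P66), with the group mean and SD as bars. Cox6a1, Cox6b1 and Ndufa3 lie lower and Ndufaf6 higher at P66 on average, and at P66 the MS_ko group has the highest mean of Cox6a1 (519.6 CPM).

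Other measures moved with age in the same libraries. Of 11 markers of myelin and mature oligodendrocytes 9 fell and 1 rose, among them Ugt8a (log2 change -1.81, SE 0.090), which makes a myelin lipid, Gsn (-1.60, SE 0.078) and the tetraspanin Tspan2 (-1.37, SE 0.073). Their summed level was 2396, 3340 and 5232 CPM (lowest, median, highest) at P22 and 1521, 1859 and 3193 CPM at P66. With the myelin score as a covariate, a setting chosen after seeing the data, 1 member was higher and 3 were lower, and with the myelin and choroid plexus scores together 1 was higher and 1 lower. Calls fell over all 7131 genes too, from 1867 higher and 1840 lower without the scores. They were 504 and 718 with the myelin score, and 538 and 737 with both. The lower members were Cox6b1, Ndufa4 and Atp5c1 in the first fit and Atp5c1 in the second. None of the 5 members called higher without these scores passed in either fit: the 1 higher member was Cox6b2 (log2 change 0.57, adjusted p 0.0183, and 0.47, adjusted p 0.00700), which had not passed before. Complex IV kept 2 calls of 4 with the myelin score and none with both, at medians of -0.16 and -0.15 against -0.155 without them. Ndufaf5 went to -0.0092 (adjusted p 0.910) and -0.0025 (adjusted p 0.978). The myelin score itself was 7.84 ± 0.28 at P22 and 6.998 ± 0.23 at P66 (mean log2 CPM over its genes, SD). Of 6 astrocyte markers 5 fell and 1 rose, and their part in the members' changes was not tested.

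The age effect was also taken within each of the 4 groups, which share no animals. In Ctr_wt 2 members rose and none fell (18.9% of all genes passed), in MS_wt 2 rose and 6 fell (30.8%), in Ctr_ko 1 rose and 5 fell (28.1%), and in MS_ko 1 rose and none fell (19.2%). Cox6a1 had log2 changes of -0.17 (SE 0.077) in Ctr_wt, -0.24 (SE 0.065) in MS_wt, -0.32 (SE 0.075) in Ctr_ko and -0.071 (SE 0.076) in MS_ko, and passed in MS_wt and Ctr_ko. Its group means were 521 ± 37.7, 559 ± 54.9, 568.1 ± 78.0 and 542 ± 76.9 CPM at P22 and 462 ± 32.9, 474 ± 29.4, 456 ± 27.6 and 519.6 ± 77.1 CPM at P66 (SD, in the order Ctr_wt, MS_wt, Ctr_ko, MS_ko). The median log2 change of the complex IV subunits was -0.14 in Ctr_wt, -0.19 in MS_wt, -0.22 in Ctr_ko and -0.061 in MS_ko. Ndufaf6 rose in Ctr_wt (0.26, SE 0.067), MS_wt (0.15, SE 0.056) and Ctr_ko (0.25, SE 0.064), and had 0.11 (SE 0.065, adjusted p 0.246) in MS_ko. Atp5sl rose in Ctr_wt (0.15, SE 0.054) and in MS_ko (0.14, SE 0.053).

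These group effects were not shown to differ. The test of the difference itself gave no member for age by genotype (0% of all genes), age by rearing (0.0421%) or all 3 factors together (0.014%), by edgeR's quasi-likelihood test, the one tool run for these 3 contrasts. At an unadjusted p under 0.05 the counts were 0, 0 and 2 of the 41 members, the 2 being Cox6b2 (log2 difference 0.96, SE 0.38, adjusted p 0.310) and Cox6a1 (0.31, SE 0.15, adjusted p 0.335). Next in that contrast was Cox6b1 (0.26, SE 0.14, adjusted p 0.367). For age by rearing the smallest p belonged to Ndufaf6 (-0.12, SE 0.064, adjusted p 0.749), Ndufb2 (0.084, SE 0.049) and Cox6a1 (0.089, SE 0.073). For age by genotype they were Ndufs1 (0.047, SE 0.037), which holds iron-sulfur clusters at the electron entry, Ndufb2 (-0.061, SE 0.049) and Ndufab1 (-0.044, SE 0.035), the mitochondrial acyl carrier protein, each with an adjusted p of 0.9997.

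**Figure D5:**
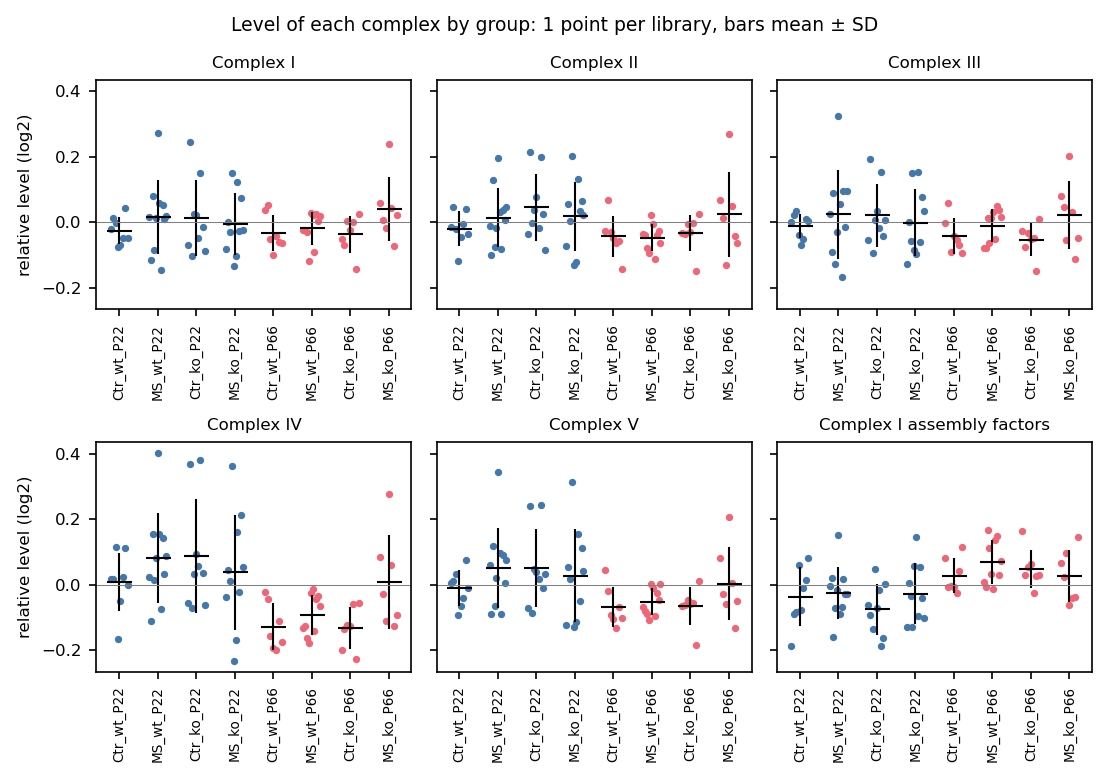
Relative level of complexes I to V and of the complex I assembly factors in the 8 groups (y axis: median over the members of log2 CPM relative to each gene's mean over all libraries); 1 point per library (blue P22, red P66), bars mean and SD. Complex IV averages 0.056 at P22 and -0.087 at P66, and MS_ko_P66 lies above the other P66 groups on average with 1 library at 0.28.

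Taken per library, the complexes overlapped between the ages. The relative level of complex IV was 0.056 ± 0.15 over the P22 libraries and -0.087 ± 0.10 over the P66 libraries (log2, SD, n = 38 and 31). For complex V it was 0.032 ± 0.11 and -0.046 ± 0.072, and for complex I 0.0015 ± 0.095 and -0.012 ± 0.070. The assembly factors had -0.040 ± 0.084 and 0.045 ± 0.065. At P66 complex IV had -0.13 ± 0.072 in Ctr_wt, -0.093 ± 0.062 in MS_wt, -0.13 ± 0.064 in Ctr_ko and 0.0086 ± 0.14 in MS_ko. MS_ko ran from -0.13 to 0.28 at P66, the highest being animal C1-56, which also has the lowest length slope of all libraries.

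At P22 no member differed by genotype, rearing or their interaction, and none of the 7036 genes tested passed in any of these contrasts (0% each). By edgeR's quasi-likelihood test 0, 0 and 1 members had an unadjusted p under 0.05, and DESeq2 and limma-voom also called none. For genotype (ko minus wt) the smallest p values were those of Ndufs1 (log2 difference -0.053, SE 0.027, adjusted p 0.832), Ndufaf1 (-0.043, SE 0.039) and Cox7a1 (0.10, SE 0.093). For rearing (MS minus Ctr) they were those of 3 rare isoforms, Cox8b (-0.47, SE 0.26, adjusted p 0.999), Cox6a2 (0.13, SE 0.11) and Cox7b2 (-0.21, SE 0.18). For the interaction, the effect of separation in ko minus that in wt, they were Cox6b2 (-0.67, SE 0.23, adjusted p 0.584), Cox6a2 (0.37, SE 0.21) and Cox8b (-0.89, SE 0.52). Cox6b2 had 3.52 ± 1.27 CPM in Ctr_wt, 4.35 ± 0.954 in MS_wt, 4.64 ± 1.36 in Ctr_ko and 3.81 ± 0.794 in MS_ko (SD), and the 4 ranges overlapped.

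Over the structural subunits the P22 interaction had 1 sign. All 30 structural subunits had negative values with a median of -0.066, against 0.0022 over all genes, and complex IV had a median of -0.12, while 3 of the 4 assembly factors were positive. Of all 7036 genes 3467 had negative values. The 30 values come from the same libraries and are not independent, so the count of signs carries no test. With the length trend removed the median of the 30 subunits was -0.021 and 25 of 30 were negative. Without the 4 P22 libraries of extreme length slope the median was -0.053 and all 30 were negative. That cut kept MS_wt_P22 C1-51 and Ctr_ko_P22 C1-4, both at a slope of -0.047. They are among the 5 libraries with the highest subunit level (0.32 and 0.25), and a fit without both was not run. The mean length slope was 0.024 ± 0.031 in Ctr_wt, -0.010 ± 0.023 in MS_wt, -0.013 ± 0.038 in Ctr_ko and 0.0039 ± 0.043 in MS_ko (SD). The ranges of the groups overlapped, and a difference in slope between them was not tested. With the choroid plexus score as a covariate, a setting added after seeing the data, the median was -0.14. That score was 4.10 ± 0.894, 4.44 ± 0.644, 4.82 ± 0.993 and 3.96 ± 1.04 (mean log2 CPM over its 10 genes, same order). In cohort 1 alone the median was -0.13 and in cohort 2 alone -0.037.

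At P66 no member passed in any of these contrasts either, where 0.0571% of 7001 genes passed for genotype, 0.371% for rearing and 0% for the interaction. The counts of members at an unadjusted p under 0.05 were 0, 4 and 1 by edgeR's quasi-likelihood test, and DESeq2 and limma-voom called none. Over the 9 genotype, rearing and interaction contrasts, those with age included, 8 of 369 pairs of member and contrast had such a p. These unadjusted counts are not read as an effect. For rearing the smallest p values were those of Ndufb2 (log2 difference 0.079, SE 0.025, adjusted p 0.148), Ndufb3 (0.059, SE 0.027, adjusted p 0.352) and Cox6a1 (0.096, SE 0.044, adjusted p 0.367). Ndufb2 had 138 ± 5.58 CPM in Ctr_wt, 148 ± 5.92 in MS_wt, 135.5 ± 5.62 in Ctr_ko and 144 ± 9.12 in MS_ko (SD). In both genotypes the MS animals were higher on average, with overlapping ranges of 132 to 147 against 143 to 162 CPM in wt and 126 to 142 against 135 to 162 CPM in ko. For genotype they were Ndufs3 (0.059, SE 0.030, adjusted p 0.614), Ndufab1 (-0.040, SE 0.021) and Cox6a2 (0.20, SE 0.11). For the interaction they were Ndufc1 (0.15, SE 0.053, adjusted p 0.795), Ndufaf4 (-0.24, SE 0.14) and Atp5sl (0.11, SE 0.064).

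For rearing at P66, 29 of the 30 structural subunits had positive values with a median of 0.033, against -0.0027 over all genes. With the length trend removed the median was 0.029 with 27 of 30 positive, and in each cohort alone 27 were positive with medians of 0.034 and 0.031. Among P66 libraries the level of the 30 subunits was highest in MS_ko_P66 C1-56 (0.27) and lowest in Ctr_ko_P66 C2-61 (-0.17). A rearing fit without both was not run. For the interaction at P66, 26 of 30 were positive with a median of 0.061, the opposite sign of P22. The median was 0.16 in cohort 1 alone and -0.064 in cohort 2 alone, which held 2 MS_ko animals at P66. With the length trend removed it was 0.032, and without MS_ko_P66 C1-56, the 1 P66 library with an extreme length slope, it was 0.027. These medians and counts of signs carry no test, and the SEs of the interaction in single genes ran up to 0.57 (Cox8b).

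Genes that build and feed the chain were taken from lists chosen with earlier results of these data known. Beside the counts below, 26.2% of all genes were higher and 25.8% lower at P66. Of 43 assembly factors outside the name rule 19 were in the table, and at P66 7 of them were higher and none was lower, with a median log2 change of 0.032 against 0.0089 over all genes. The smallest p values were those of Atpaf1, which assembles the catalytic part of the ATP synthase (0.28, SE 0.021, adjusted p 1.45e-18), Coa5, a complex IV factor (0.26, SE 0.025, adjusted p 5.62e-14), and Uqcc1, a complex III factor (0.14, SE 0.020, adjusted p 1.88e-08). Their summed level was 1153, 1213 and 1416 CPM (lowest, median, highest) at P22 and 1264, 1326 and 1389 CPM at P66. Of 16 genes of electron carriers and nucleotide exchange 5 were higher and 2 lower. Among them were Coq2, an enzyme of ubiquinone synthesis (0.21, SE 0.018), the ubiquinone-binding Coq10b (-0.24, SE 0.041) and Atpif1, the inhibitor of ATP synthase running in reverse (-0.12, SE 0.028). Of 11 genes of the tricarboxylic acid cycle and pyruvate dehydrogenase 4 were higher and 2 lower, led by Pdhx, a structural part of pyruvate dehydrogenase (-0.19, SE 0.017), the mitochondrial malic enzyme Me3 (0.19, SE 0.027) and Pdk4, a kinase that switches pyruvate dehydrogenase off (0.31, SE 0.046). No gene of these lists passed in a genotype, rearing or interaction contrast.

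The members' words and values met as follows. Of the 18 members with an NRF1, ETS or YY1 word 2 rose, 7 fell and 9 did not pass, with a median log2 age effect of -0.055. Of the 16 with a window but without such a word 2 rose, 4 fell and 10 did not pass, with a median of -0.013. Of the 6 with the YY1 word 4 fell, among them Ndufa3, and Atp5sl rose. Beside these counts, 26.2% of all genes tested were higher and 25.8% lower at P66. For Atp5f1 and Atp5j2, which also hold the YY1 word and fell, the window's start lies 836 and 521 bases from the gene start in the count table. Their windows may thus not be the promoters of the transcripts counted. These are descriptions over few genes, and the difference was not tested.

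Some members share sequence or place with other genes. In GENCODE M21, 12 members overlap an exon of a gene on the opposite strand, among them Ndufa3 (Tfpt), Atp5f1 (Wdr77), Ndufb2 (Braf) and Cox6a2 (Itgad), and reads of such pairs cannot be told apart unless the counting used strand, which no source used here states. Ndufb2 also overlaps a gene on its own strand. Atp5c1, Atp5k, Ndufab1 and Uqcrh have named pseudogenes, to which reads could have been assigned.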

How the data were processed

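The authors deposited raw counts of reads per gene, 1 column per animal, with no normalization. The submitters' processing notes name cutadapt 1.16, FastQC 0.11.4, limma 3.34.9 and edgeR, and no source used here states an aligner, a counter, a strand setting or a build. The part analysed here holds 9930 complete genes of chromosomes 1 to 8, with the last chromosome in part, and 1 broken record was left out. Its library totals are not the full depth. GENCODE M21 (GRCm38) held 99.55% of the gene IDs and 40 of 41 members at the same position.

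In R 4.3.3, edgeR 4.0.16 kept genes by filterByExpr (minimum count 10, minimum total 15), scaled by TMM and fitted the quasi-likelihood model with terms for group and cohort. Age was tested over all 69 libraries (7131 genes), and genotype, rearing and their interaction within each age (7036 and 7001 genes). A gene passed where its p, adjusted by Benjamini-Hochberg over all genes tested, was under 0.05. The script was tested on simulated data. Alternatives used DESeq2 1.42.0 and limma-voom 3.58.1, other scalings, filters, covariates and subsets. Scores are means of log2 CPM with a prior count of 2. Relative levels are medians over members of log2 CPM over the gene's mean.

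The 272 pairs of libraries within groups had a chi-square per degree of freedom of 4.47 to 88.0, above counting error in each pair. Each animal counted as 1 independent replicate. Whole litters were separated and the labels do not say which animals shared one, so any likeness of littermates makes the p-values for rearing too small. The values of 1 member are not reported here singly; it stays in the counts and medians. Members, gene lists and rules were chosen with earlier results of these data known. Named are, in each complex or role group, up to 4 members that passed with the largest age effects and up to 2 others with the smallest, all complex IV isoforms, the 3 members with the smallest p in each other contrast, and up to 3 genes per list. Ranges by group are given for members chosen after their values were seen.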

Additional observations from a re-analysis of the deposited data

Results flagged for a closer look

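In 63 sets of 7 to 10 libraries (a complex or role group in 1 of the groups) the highest or lowest library was compared with the rest by Dixon's gap test at 95%, which flags about 1 in 20 sets by chance. It flagged 5. In Ctr_ko_P66 animal C2-61 lay below the other 6 animals for complex II (relative log2 level -0.15, next -0.035), complex V (-0.18, next -0.065) and the 30 structural subunits (-0.17, next -0.066). In MS_ko_P66 animal C1-56 lay above the others for complex I (0.24, next 0.060). In Ctr_wt_P66 animal C1-58 lay above the others for the complex IV isoforms (0.38, next 0.036), whose counts are low. The group MS_wt_P22, with 11 libraries, was not tested, because the limits used ended at 10 libraries. Its highest library for the 30 structural subunits was C1-51 (0.32, next 0.091).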

How the results depend on the processing

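No paired analysis was possible because animal numbers were given separately within each cohort and rearing group, so that equal numbers name different animals. Of the age counts, 5 higher and 13 lower, the first was 2 in cohort 2 alone and the second 3 in cohort 1 alone. With choroid plexus and myelin scores as covariates they were 1 and 1, and with the myelin score alone, added after seeing the data, 1 and 3. The 1 higher member is Cox6b2, so none of the 5 passed there. Ndufaf5 then changed sign, to -0.0025 and -0.0092. Over all genes the calls in either direction were 1275 and 1222 in these fits, against 3707 without the scores. Leaving out 1 library gave 4 to 8 higher (8 without Ctr_ko_P22 C1-4) and 10 to 17 lower (17 without MS_ko_P66 C1-56). Of the 18 members called, 14 passed in every such fit, the others being Cox5b, Ndufb3, Ndufc1 and Atp5j2. The counts under other tools, scalings, filters and with the length trend removed were within 1.5 times of these, although Cox5b and Atp5j2 lost their calls with limma-voom. Among the 18 members called, 10 did not pass in cohort 1 alone and 6 did not pass in cohort 2 alone. The genotype, rearing and interaction contrasts within each age gave no member under any alternative run; the interactions with age had no alternatives. A single cohort holds fewer animals; otherwise the cause was not tested. At 11.283 to 16.365 M counts the isoforms have 1 to 126 counts per library, and changes below their SEs were not detectable.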

Other observations

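Of 14 genes of glycolysis and lactate handling 5 were lower and 1 was higher at P66, and the smallest p values were all those of transporters: Slc2a1, the glucose transporter of the blood-brain barrier and astrocytes (log2 change -0.49, SE 0.045, adjusted p 1.12e-14), Slc2a3, that of neurons (-0.21, SE 0.021, adjusted p 7.51e-14), and Slc16a1, a lactate transporter (-0.40, SE 0.045, adjusted p 2.50e-11). The summed level of the 14 genes was 14020 CPM at P22 and 14120 CPM at P66 (medians). Beside the counts of these lists, 26.2% of all genes were higher and 25.8% lower at P66. Of 14 genes of mitochondrial protein import only Tomm34 rose (0.32, SE 0.026, adjusted p 1.91e-17) and only Timm10b fell (-0.062, SE 0.024, adjusted p 0.0235). Of 5 regulators of mitochondrial biogenesis Tfb2m, a mitochondrial transcription factor, rose (0.077, SE 0.030, adjusted p 0.0291) and the nuclear receptor Esrrg fell (-0.10, SE 0.044, adjusted p 0.0474), while Gabpb1, a partner of the ETS factor GABP, had 0.060 (SE 0.039, adjusted p 0.191).

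Among cell type markers at P66, neurons had 4 higher and 4 lower of 12, hippocampal fields 4 higher and 3 lower of 10, microglia 1 higher of 7, endothelium 1 higher and 1 lower of 4, ependyma 2 lower of 6 and choroid plexus 1 lower of 10. Over all genes 26.2% were higher and 25.8% lower. All p-values are from edgeR's quasi-likelihood test over all genes.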
